A study of Mus musculus with 20 samples.

Results

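The genes described here carry out fatty acid oxidation in the liver or are known targets of PPARα: 35 genes chosen by name, of which 32 were measured among 16464 genes with 1 symbol. Acsl1, Hadhb and Ucp2 were not analysed here. Fatty acids enter mitochondria as carnitine esters and are then shortened in repeated rounds of beta-oxidation, each round passing electrons to the respiratory chain. Peroxisomes shorten very long chains, and microsomal Cyp4a enzymes oxidise the far end of the chain. PPARα is a nuclear receptor that binds fatty acids and, in rodent liver, drives many of the genes for these steps during fasting.

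The livers came from C57BL/6 males that were 10 weeks old, weighed 21 to 27 g and were dosed by oral gavage over 25 days. One group received ethinylestradiol (EE2), a synthetic estrogen, at 3.70 mg/kg in sunflower oil, and its vehicle group received the oil alone. Another received chlorpromazine (CPZ), an antipsychotic drug, at 10 mg/kg in PBS, and its vehicle group received PBS alone. Both drugs are known causes of cholestasis, and each group had 5 arrays, named below by group and sample number. The labels describe no genetic change in these mice, and they number the samples without tying each one to a mouse of its own. The p-values therefore speak for the spread among the arrays, which may be technical.

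Levels are log2 values, so that a difference of 1 is a doubling of signal. A gene was called when its limma p, adjusted by the Benjamini-Hochberg method over all 16464 genes, was under 0.05. Arrays of 1 group correlated at 0.9944 to 0.9974 over all genes, and no arrays held identical values. Mean levels of 9 hepatocyte markers lay between 13.16 and 13.20 on EE2 arrays and between 13.04 and 13.16 on oil arrays, near the top of the measured range. Albumin (Alb), the main liver plasma protein, differed by -0.009 between EE2 and oil. The 9 markers did not move together: Tat, also listed as a fasting gene, rose, while Apoa1 and Hnf4a fell, as given below. Their mean therefore does not show that hepatocyte signal was unchanged or higher. The median over named genes averaged 4.65 on EE2 arrays, against 4.49 on oil arrays, 4.51 on CPZ arrays and 4.49 on PBS arrays. Of the 32 genes, 30 had a mean level above the median gene, and the exceptions were Pdk4 and Fgf21. In whole liver, fewer cells of a type and less RNA per cell cannot be told apart. The Cyp4a genes and the Acot genes have near-identical relatives whose transcripts may share probe signal, and their separate values are uncertain to that extent.

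Promoters are shown for 5 genes of the set with contrasting EE2 responses: Ehhadh, which rose, Acaa1b and Acot1, which fell, and Acot2 and Acot4, neighbours of Acot1 that were not called. Each is the 250 bases before the gene's start in the RefSeq table for mouse build GRCm38.p6, written 5′ to 3′ on the gene's strand. They lie at chr16:21787835-21788084 (minus strand) for Ehhadh, chr9:119157094-119157343 (minus) for Acaa1b, chr12:84009252-84009501 (plus) for Acot1, chr12:83987611-83987860 (plus) for Acot2 and chr12:84038129-84038378 (plus) for Acot4. Capitals mark the single match to the 6-base core motif of nuclear receptor binding sites.
Ehhadh: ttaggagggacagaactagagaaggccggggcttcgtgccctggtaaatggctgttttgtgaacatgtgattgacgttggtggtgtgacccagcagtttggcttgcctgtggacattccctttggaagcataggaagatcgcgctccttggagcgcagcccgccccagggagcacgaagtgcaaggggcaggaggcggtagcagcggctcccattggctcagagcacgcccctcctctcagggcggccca
Acaa1b: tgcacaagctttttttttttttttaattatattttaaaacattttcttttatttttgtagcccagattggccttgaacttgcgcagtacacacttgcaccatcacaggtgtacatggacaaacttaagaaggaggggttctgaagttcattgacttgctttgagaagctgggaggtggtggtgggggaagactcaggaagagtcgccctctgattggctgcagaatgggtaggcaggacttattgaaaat
Acot1: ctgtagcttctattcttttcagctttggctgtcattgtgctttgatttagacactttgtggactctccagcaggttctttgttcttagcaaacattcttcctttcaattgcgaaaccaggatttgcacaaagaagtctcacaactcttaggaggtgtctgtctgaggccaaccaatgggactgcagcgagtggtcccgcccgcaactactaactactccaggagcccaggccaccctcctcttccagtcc
Acot2: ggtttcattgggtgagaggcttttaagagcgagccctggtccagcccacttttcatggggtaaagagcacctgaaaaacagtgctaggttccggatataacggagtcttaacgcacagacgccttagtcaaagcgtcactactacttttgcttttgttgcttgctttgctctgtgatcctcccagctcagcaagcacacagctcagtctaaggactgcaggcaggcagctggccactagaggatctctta
Acot4: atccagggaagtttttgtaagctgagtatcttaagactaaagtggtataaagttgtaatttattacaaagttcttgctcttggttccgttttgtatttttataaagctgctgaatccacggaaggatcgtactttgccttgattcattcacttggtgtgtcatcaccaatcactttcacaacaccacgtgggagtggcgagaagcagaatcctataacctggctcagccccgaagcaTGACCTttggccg

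Of the 32 measured genes, 26 had a promoter in that table of 27025 genes, Cyp4a10 and Cyp4a14 not among them, and motifs were searched on both strands of those windows. The paired element bound by PPARα and its partner RXR, searched as AGGTCANAGGTCA, was in 0 of 26 windows and in 0.0407% of all genes in the table. A looser form, AGGNCANAGGNCA, was also in 0 of 26 and in 0.4% of all genes, and the estrogen response element GGTCANNNTGACC was in 0 of 26 and in 0.0666%. With matches so rare among all genes, a count of 0 in 26 short windows cannot show that these genes lack such elements. The core motif AGGTCA, which is contained in the paired element, occurred in 4 of 26, namely Acadm, Acadvl, Acot4 and Cpt1a, and in 15.8% of all genes. In Acot4 it reads TGACCT on the gene's strand, between bases -13 and -8 before the start. The TATA box hexamer TATAAA, counted at any position, occurred in Acot4 and Fgf21, 2 of 26, and in 14.3% of all genes. Distance from the start was not considered, so these matches are not shown to be working TATA boxes. The promoters of Acot1 and Acot2 were identical at 47.6% of bases after alignment, and those of Acot2 and Acot3 at 53.2%. Pairs that were not both Acot genes lay between 50% and 52.4%.

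With EE2, most mitochondrial steps fell modestly while the omega-hydroxylases Cyp4a10 and Cyp4a14 and the peroxisomal enzyme Ehhadh rose by 1.92-fold to 7.97-fold. Of the 32 genes, 3 were higher and 16 lower, against a background in which 45.9% of all genes were called, 19.2% higher and 26.7% lower. The counts by role given below stand against the same shares. The share called among the 32 was 59.4%, and the share called lower was 50%. The 3 that rose were Cyp4a14, Ehhadh and Cyp4a10, and the deepest falls were those of Acot1 and Acaa1b. The number called higher was 5 without oil array 5 and 7 without EE2 array 17, and the number called lower was 16 whichever array was left out. The median difference over the 32 was -0.17, against -0.07 over all genes. Centring the arrays on their medians moved these to -0.33 and -0.23, with 3 higher and 20 lower among the 32 and 2062 higher and 9784 lower among all genes, where the uncentred values gave 3166 and 4394. Arrays of the compared groups did not overlap for 15 of the 32, 3 higher and 12 lower, against 31.8% of all genes, 14.6% higher and 17.2% lower.

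**Figure D1:**
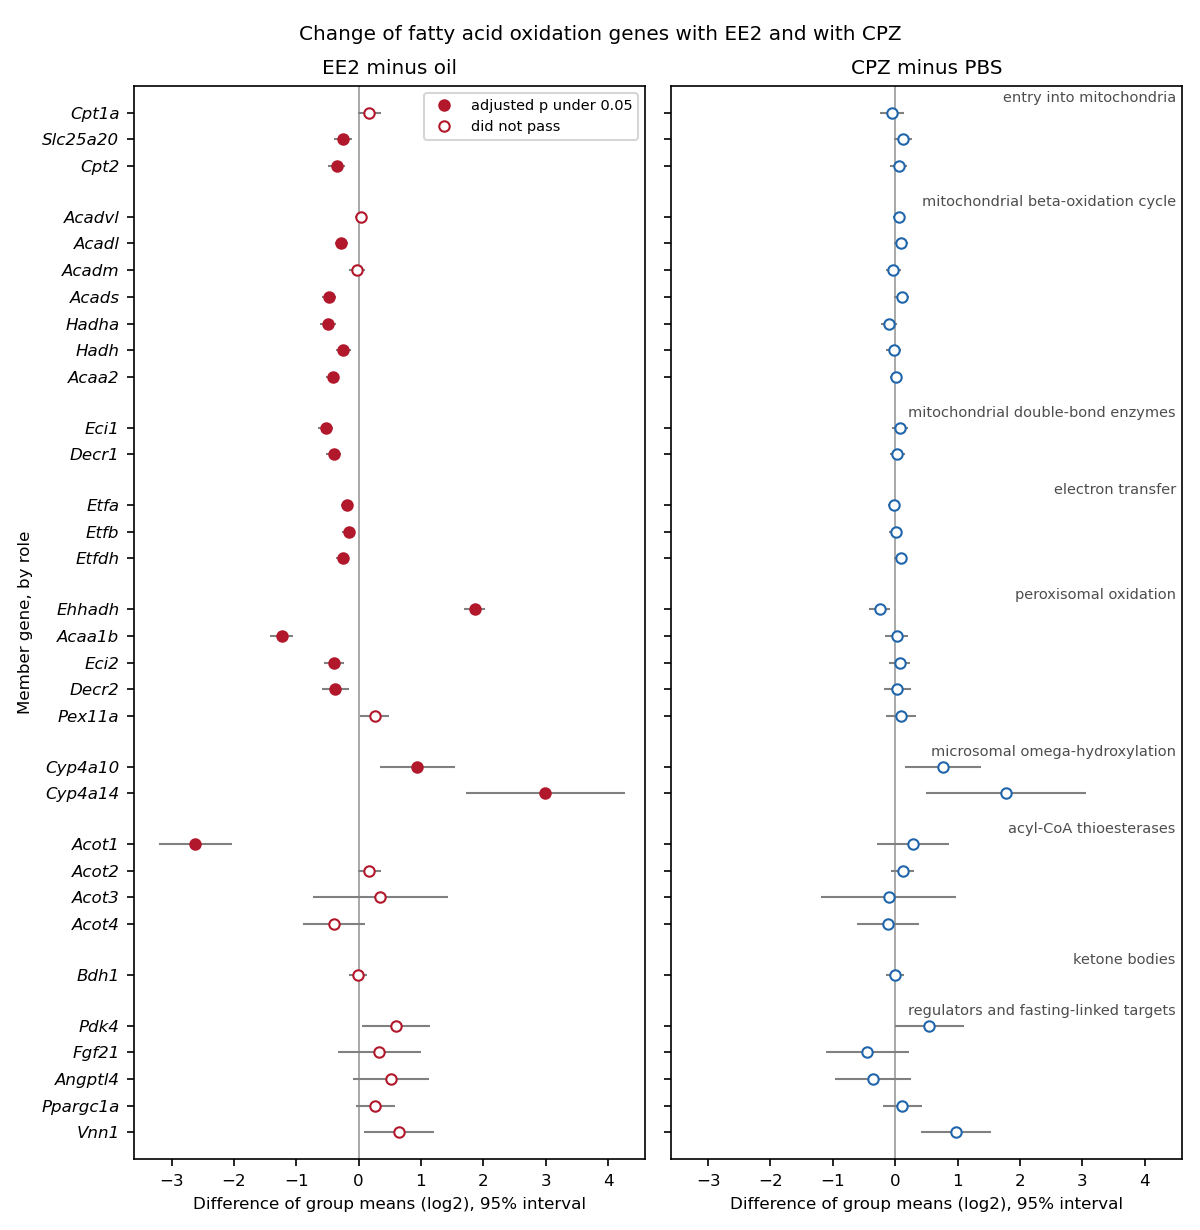
Difference of group means on the log2 scale for each of the 32 genes, ordered by role, with EE2 minus oil on the left and CPZ minus PBS on the right; bars are 95% intervals and filled points have an adjusted p under 0.05. On the left 3 filled points lie to the right of 0 and 16 to its left, and on the right no point is filled. Open points of Vnn1, Pdk4 and Pex11a on the left also have intervals wholly to the right of 0.

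Markers of other cells were counted as well, in a background of 45.9% of all genes called, 19.2% higher and 26.7% lower. Macrophage markers rose at 17 of 18 genes, with a mean level of 7.87 to 8.44 on EE2 arrays and 6.80 to 7.07 on oil arrays. Lymphocyte markers rose at 7 of 10 and neutrophil markers at 4 of 10, and endothelial markers had 2 higher and 5 lower of 10. Of 9 hepatocyte markers 3 were higher and 3 lower, among them the amino acid enzyme Tat at 1.09, Apoa1 at -0.28 and Hnf4a at -0.19. Of 7 fasting and gluconeogenesis genes, Igfbp1 rose by 2.42, Tat by 1.09 and Pck1 by 0.92, and Pcx fell. Of 15 circadian clock genes 2 were higher and 6 lower, with Dbp at -0.60 and Hlf at -0.56. Of 7 adipocyte markers 1 was higher and 3 lower. Fabp4, also made by macrophages, rose by 5.00, while the defining fat cell genes Adipoq and Lep lay near background, at 2.96 and 2.65 on EE2 arrays and 3.11 and 2.88 on oil arrays. Muscle markers (6) and cholangiocyte markers (5) each had 1 lower. The part of these cells and of feeding or clock state in the results below was not tested.

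Entry of fatty acids into mitochondria was lower at 2 of its 3 measured steps. Cpt2, which turns acylcarnitine back into acyl-CoA inside the mitochondrion, read 9.91, 9.85, 9.89, 9.84 and 9.90 on EE2 arrays 9, 13, 15, 17 and 18, against 10.32, 10.19, 10.22, 10.16 and 10.24 on oil arrays 2, 5, 6, 8 and 16. Every EE2 array was below every oil array, and Cpt2 fell by 0.35 (SE 0.07, adjusted p = 0.000182). Slc25a20, the carnitine-acylcarnitine carrier of the inner membrane, read 9.79, 9.97, 9.59, 9.76 and 9.83 with EE2 and 10.08, 10.13, 9.95, 10.06 and 9.96 with oil. EE2 array 13 reached into the oil range, and the fall of 0.25 (SE 0.07) passed at an adjusted p of 0.00521.

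Cpt1a, the outer-membrane enzyme that controls the rate of entry, read 10.40, 10.92, 10.50, 10.62 and 10.62 on EE2 arrays and 10.50, 10.40, 10.48, 10.48 and 10.33 on oil arrays. EE2 array 13 was the highest and EE2 array 9 lay within the oil values. Its difference of 0.17 (95% interval -0.02 to 0.36) did not pass (adjusted p = 0.127).

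In the mitochondrial beta-oxidation cycle 5 of 7 measured enzymes fell. Hadha, the alpha subunit of the trifunctional protein for long chains, read 9.65, 9.82, 9.71, 9.68 and 9.81 with EE2 and 10.21, 10.09, 10.34, 10.25 and 10.23 with oil. Its fall of 0.49 (SE 0.06, 1.41-fold, adjusted p = 1.82e-06) was the largest of the cycle, with no overlap between the groups. Acads, the dehydrogenase for short chains, read 9.20, 9.21, 9.30, 9.27 and 9.23 with EE2 and 9.74, 9.62, 9.66, 9.81 and 9.76 with oil, and fell by 0.47 (SE 0.06, adjusted p = 6.69e-07). Acaa2, the thiolase of the last step, read 11.74, 11.81, 11.70, 11.92 and 11.76 with EE2 and 12.18, 12.25, 12.23, 12.14 and 12.22 with oil, a fall of 0.42 (SE 0.05, adjusted p = 3.72e-07). The EE2 arrays of both genes lay wholly below the oil arrays.

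Acadl, the long-chain dehydrogenase, read 10.97, 10.99, 10.87, 10.95 and 10.98 with EE2 and 11.25, 11.29, 11.13, 11.25 and 11.21 with oil. It fell by 0.28 (SE 0.05, adjusted p = 0.000239), again without overlap. Hadh, the hydroxyacyl-CoA dehydrogenase for shorter chains, read 11.55, 11.57, 11.55, 11.75 and 11.65 with EE2 and 11.86, 12.00, 11.81, 11.75 and 11.88 with oil. It fell by 0.25 (SE 0.06, adjusted p = 0.00145), although EE2 array 17 and oil array 8 both stood at 11.75.

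The other two dehydrogenases of the cycle were not called. Acadvl, for very long chains, averaged 11.19 ± 0.05 with EE2 and 11.15 ± 0.06 with oil (SD, n = 5 each), a difference of 0.04 with a 95% interval of -0.05 to 0.13 (adjusted p = 0.474). Its sign depended on the scaling, being 0.12 under quantile normalization and -0.12 once array medians were set equal, and both values passed the test. Acadm, for medium chains, averaged 12.13 ± 0.02 and 12.15 ± 0.14 in EE2 and oil livers, a difference of -0.03 with an interval of -0.15 to 0.10 (adjusted p = 0.742). It turned to 0.07 under quantile normalization and was -0.19 (adjusted p = 0.0099) with centred arrays. The 4 dehydrogenases that open the cycle for different chain lengths thus had differences spread between -0.47 and 0.04.

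Both measured enzymes that remove double bonds fell. Eci1, an enoyl-CoA isomerase, read 10.40, 10.45, 10.25, 10.37 and 10.36 on EE2 arrays and 10.98, 10.91, 10.86, 10.80 and 10.93 on oil arrays. Every EE2 array was below every oil array, and the fall was 0.53 (SE 0.06, 1.44-fold, adjusted p = 3.29e-07). Decr1, the 2,4-dienoyl-CoA reductase, read 9.33, 9.40, 9.27, 9.60 and 9.51 with EE2 and 9.82, 9.84, 9.78, 9.81 and 9.86 with oil, and fell by 0.40 (SE 0.06, adjusted p = 9.35e-06).

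All 3 genes that pass electrons to the respiratory chain were lower, by smaller amounts. Etfdh, which hands the electrons to ubiquinone, read 10.54, 10.57, 10.63, 10.63 and 10.52 with EE2 and 10.89, 10.87, 10.78, 10.75 and 10.87 with oil, without overlap. It fell by 0.25 (SE 0.05, adjusted p = 0.000241). Etfa and Etfb, the subunits of the electron transfer flavoprotein, fell by 0.18 (SE 0.05, adjusted p = 0.00357) and by 0.16 (SE 0.05, adjusted p = 0.0136). The fall of Etfb did not pass under quantile normalization, where it was 0.08 (adjusted p = 0.234).

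Peroxisomal genes moved in both directions, with 1 higher and 3 lower of 5. Ehhadh, the bifunctional enzyme that hydrates and then oxidises the shortened chain in peroxisomes, read 12.48, 12.27, 12.57, 12.69 and 12.47 on EE2 arrays and 10.75, 10.69, 10.71, 10.42 and 10.59 on oil arrays. The lowest EE2 array stood more than 1 unit above the highest oil array. Ehhadh rose by 1.86 (SE 0.08), a 3.63-fold change with a 95% interval of 3.23 to 4.09 (adjusted p = 1.88e-13). Its smallest rise under any alternative was 1.70.

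Acaa1b, the thiolase that completes the same peroxisomal round, went the other way. It read 11.47, 11.91, 11.69, 11.92 and 11.44 with EE2 and 13.04, 12.93, 12.82, 12.86 and 12.95 with oil. The fall was 1.23 (SE 0.09, 2.35-fold, adjusted p = 3.45e-10). Eci2, an isomerase for unsaturated chains, read 10.25, 10.40, 10.05, 10.06 and 10.31 with EE2 and 10.60, 10.66, 10.68, 10.60 and 10.48 with oil, a fall of 0.39 (SE 0.08, adjusted p = 0.000381). Both genes had every EE2 array below every oil array.

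Decr2, the peroxisomal reductase for dienoyl-CoA, read 9.48, 9.36, 9.15, 9.34 and 9.27 with EE2 and 9.76, 9.74, 9.28, 9.80 and 9.90 with oil. Oil array 6 lay among the EE2 values, and the fall of 0.38 (SE 0.10) passed at an adjusted p of 0.00562. Pex11a, which takes part in peroxisome division, averaged 10.30 ± 0.23 with EE2 and 10.04 ± 0.13 with oil (SD, n = 5 each), a difference of 0.26 (adjusted p = 0.0684). It passed without oil array 5 (0.31) and without EE2 array 17 (0.32, adjusted p = 0.0294).

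Both omega-hydroxylases, which begin oxidation from the far end of the chain and are strong PPARα targets in mice, rose. Cyp4a14 read 11.66, 11.02, 11.58, 11.54 and 11.53 on EE2 arrays and 9.12, 9.81, 7.37, 7.47 and 8.61 on oil arrays. The EE2 values were close together (SD 0.26) and the oil values wide apart (SD 1.05). The rise was 2.99 (SE 0.61), 7.97-fold with a 95% interval of 3.28 to 19.3 (adjusted p = 0.00046).

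Cyp4a10 read 12.06, 11.21, 11.94, 11.65 and 11.60 with EE2 and 11.02, 11.19, 10.15, 10.45 and 10.94 with oil. EE2 array 13 exceeded oil array 5 by only a small margin, and the other EE2 arrays were clearly higher. The rise was 0.94 (SE 0.29, 1.92-fold, adjusted p = 0.0118).

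**Figure D2:**
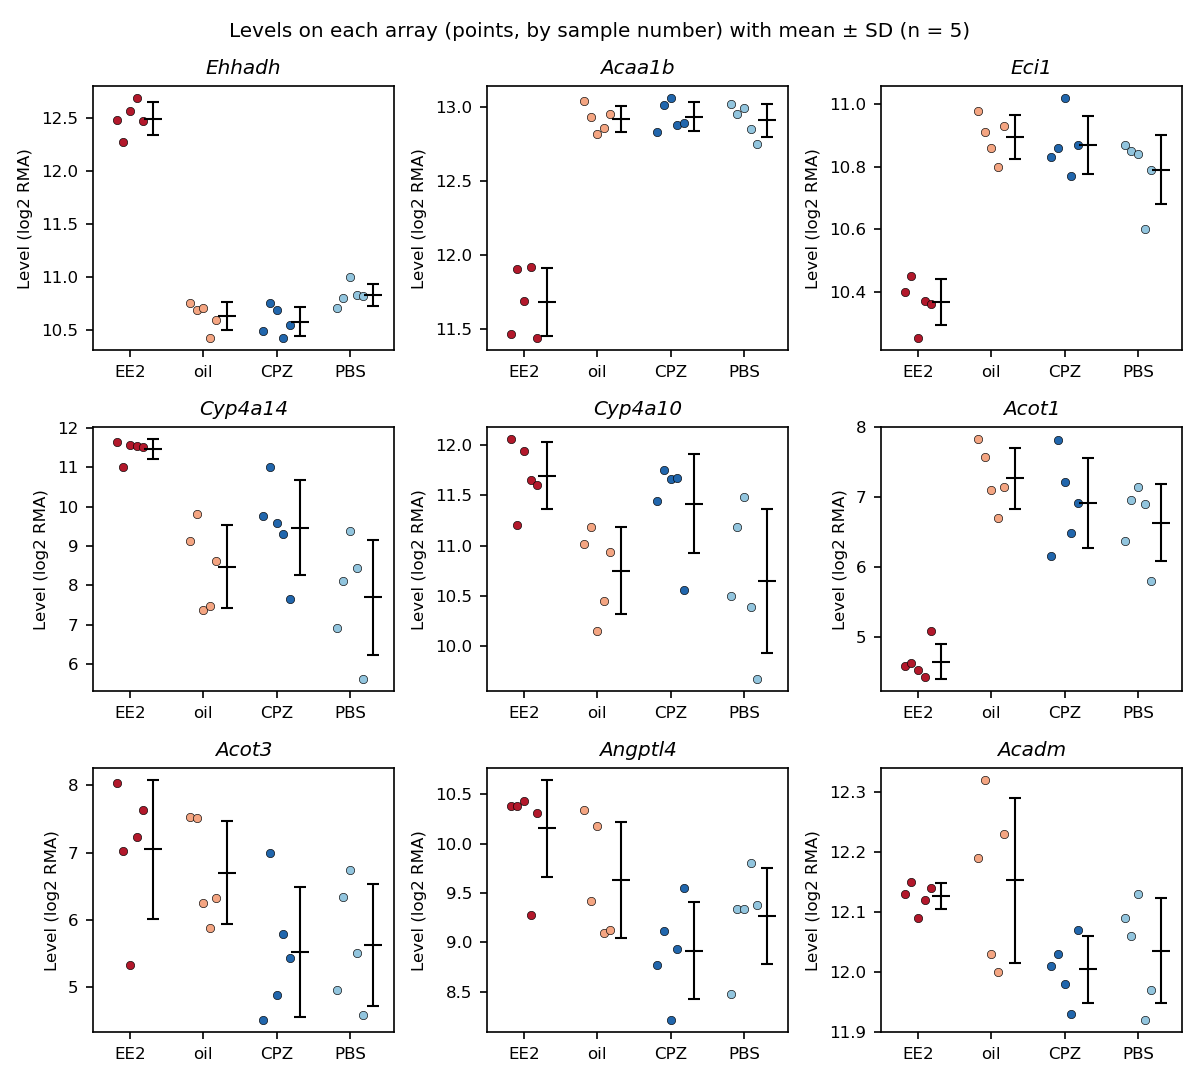
Level on each array (log2 RMA, vertical axis) of 9 genes, in the order EE2, oil, CPZ and PBS; points are arrays by sample number and the bar beside them is the mean ± SD of 5 arrays. EE2 arrays of Ehhadh sit at 12.27 or above and those of Acot1 at 5.08 or below, both apart from all other groups, while Cyp4a14 ranges from 5.61 to 11.01 over the PBS and CPZ arrays.

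The acyl-CoA thioesterases release free fatty acid from CoA in different compartments, and 1 of 4 was called. Acot1, the cytosolic form, read 4.58, 4.62, 4.52, 4.43 and 5.08 with EE2 and 7.83, 7.57, 7.10, 6.70 and 7.14 with oil. Its EE2 values lay near the array median, and the fall of 2.62 (SE 0.28, 6.15-fold, adjusted p = 1.53e-07) was the largest of the 32 genes. Acot2, the mitochondrial form, averaged 5.76 ± 0.17 with EE2 and 5.59 ± 0.13 with oil (SD, n = 5 each), with an adjusted p of 0.123. Acot3 and Acot4 are peroxisomal in mice. Acot3 ran between 5.34 and 8.03 on EE2 arrays and between 5.88 and 7.53 on oil arrays, a difference of 0.35 with a 95% interval of -0.73 to 1.43. It ran between 0.10 without EE2 array 9 and 0.78 without EE2 array 15. Acot4 differed by -0.39 (interval -0.89 to 0.10, adjusted p = 0.182), by -0.55 (adjusted p = 0.0426) with centred arrays, and by -0.17 without EE2 array 15.

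The ketone body enzyme Bdh1, which makes beta-hydroxybutyrate, read 9.76, 10.04, 9.79, 9.85 and 9.70 with EE2 and 9.75, 9.79, 9.78, 9.97 and 9.88 with oil. The groups overlapped throughout, with a difference of -0.005 and a 95% interval of -0.15 to 0.14. With arrays centred on their median the difference was -0.17 (adjusted p = 0.0386).

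None of the 5 regulators and fasting-linked targets was called, and all 5 had EE2 means above the oil means. Pdk4, a kinase that holds back pyruvate use, read 5.28, 4.52, 4.16, 3.98 and 4.23 with EE2 and 4.52, 3.73, 4.37, 3.46 and 3.09 with oil, a difference of 0.60 (adjusted p = 0.0689). Pdk4 passed without oil array 2 (0.77), oil array 6 (0.73) or EE2 array 17 (0.71), and with the sample number in the fit, at 1.05 (adjusted p = 0.0011). EE2 arrays had mostly higher sample numbers than oil arrays, so that fit cannot fully separate number from treatment. Fgf21, a fasting hormone of the liver, read 3.77, 4.23, 3.31, 4.78 and 3.91 with EE2 and 3.42, 4.76, 3.67, 3.06 and 3.41 with oil, a difference of 0.33 (adjusted p = 0.408) that ran between 0.14 without EE2 array 17 and 0.61 without oil array 5. Both were dim genes, with several arrays near the lower quartile of all genes, which averaged 3.06 on EE2 arrays and 3.16 on the others.

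Ppargc1a, a coactivator of PPARα, read 6.08, 5.41, 6.16, 5.39 and 5.94 with EE2 and 5.50, 5.23, 5.48, 5.40 and 6.02 with oil, a difference of 0.27 (adjusted p = 0.153) that was 0.39 (adjusted p = 0.0315) without oil array 16. Angptl4, an inhibitor of lipoprotein lipase, read 10.38, 10.38, 10.43, 9.28 and 10.31 with EE2 and 10.34, 9.42, 10.18, 9.09 and 9.13 with oil, so that EE2 array 17 stood alone among its group. The difference was 0.52 (adjusted p = 0.149), and without that array it was 0.74 (adjusted p = 0.0385). Vnn1, a pantetheinase, averaged 9.01 ± 0.29 with EE2 and 8.36 ± 0.32 with oil (SD, n = 5 each), a difference of 0.65 (adjusted p = 0.0528) that passed under 6 of 18 alternatives. It was 0.76 without oil array 5 and 0.74 without EE2 array 17. With the sample number in the fit it was 1.12 (adjusted p = 0.000645), where number and treatment are again not fully separated.

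Genes of 1 family that share a chromosome region did not all move alike. On chromosome 4 the Cyp4a genes described here run in the order Cyp4a12a, Cyp4a14, Cyp4a10 and Cyp4a31, with Cyp4a12b and Cyp4a30b, not analysed here, lying after Cyp4a12a. Cyp4a12a, a male-biased omega-hydroxylase in mice, read 6.03, 7.46, 7.27, 5.70 and 5.91 with EE2 and 11.32, 11.33, 11.29, 11.29 and 11.23 with oil, and fell by 4.82 (SE 0.26, adjusted p = 4.16e-12). Cyp4a14, Cyp4a10 and Cyp4a31 all rose, Cyp4a31 by 0.75 (adjusted p = 0.00661). On chromosome 12 the order is Acot2, Acot1, Acot4, Acot3 and Acot5, and Acot1 alone was called among these 5. The intervals of Acot1 (-3.20 to -2.04) and Acot4 (-0.89 to 0.10) did not overlap, and a difference between genes was not tested.

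**Figure D3:**
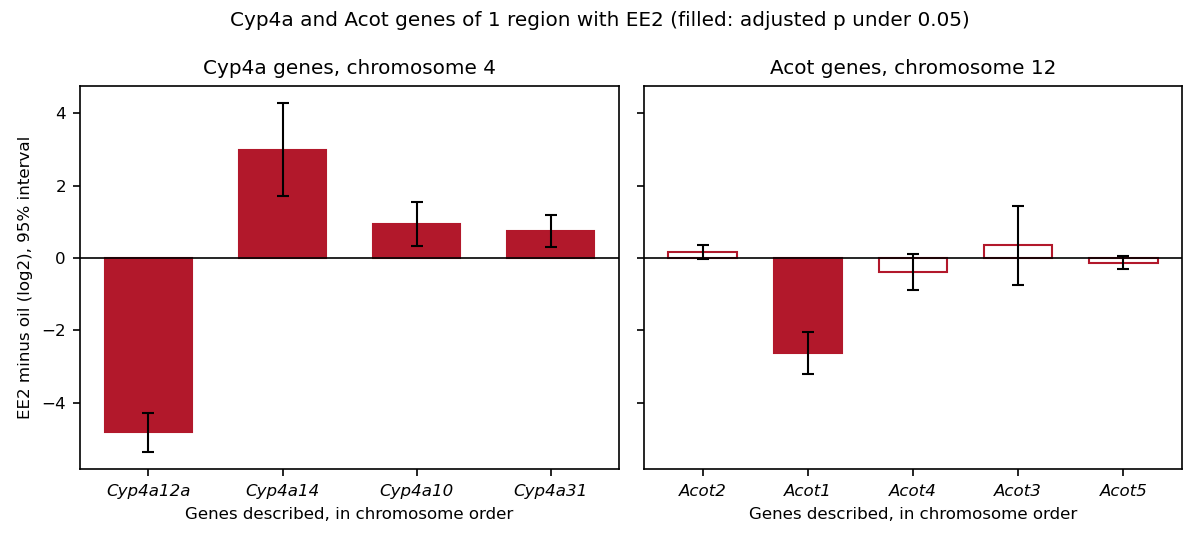
EE2 minus oil difference (log2, bars from 0, with 95% intervals) for measured Cyp4a genes on chromosome 4 and Acot genes on chromosome 12, left to right in chromosome order; filled bars have an adjusted p under 0.05. Cyp4a12a lies at -4.82 and Cyp4a14 at 2.99, with 2 genes between them that are not drawn, and Acot1 at -2.62 stands between Acot2 at 0.17 and Acot4 at -0.39.

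Among 71 other measured genes of the pathway, 11 were higher and 36 lower with EE2, or 66.2% called, where 45.9% of all genes were called, 19.2% higher and 26.7% lower. The median difference was -0.18, against -0.07 over all genes. The counts of the shorter lists below stand against the same shares. Ppara itself, the gene for the receptor, read 9.98, 10.44, 9.94, 9.98 and 10.05 with EE2 and 10.44, 10.41, 10.42, 10.37 and 10.37 with oil. EE2 array 13 was at the oil level and the other 4 were below it, and the fall of 0.32 passed (adjusted p = 0.000977). Of 11 receptor and co-regulator genes, 7 were lower, among them the coactivator Ppargc1b at -0.86, Med1 at -0.36 and the partner receptor Rxra at -0.36. Lpin1, a phosphatidate phosphatase that also acts as a PPARα coactivator, was the 1 that was higher, at 1.39 (SE 0.24, adjusted p = 7.34e-05).

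Fatty acid uptake and activation had 2 higher and 5 lower of 8. The uptake receptor Cd36, which macrophages also carry, read 9.08, 8.75, 8.73, 8.70 and 8.88 with EE2 and 6.83, 6.57, 6.13, 6.40 and 6.61 with oil, a rise of 2.32 (SE 0.14, adjusted p = 1.92e-11). The hepatocyte fatty acid binding protein Fabp1 fell by 0.65, and the acyl-CoA synthetases Slc27a5 and Slc27a2 fell by 0.44 and by 0.35. Other mitochondrial oxidation genes had 0 higher and 5 lower of 10, led by Acadsb, a dehydrogenase for branched short chains, at -0.97. Acad11, Echs1 and Mlycd, which breaks down malonyl-CoA, fell by 0.25, by 0.27 and by 0.26. The remaining lower gene of this list was Acacb, at -0.85 (adjusted p = 0.00695). The list holds regulators as well as enzymes of oxidation, Acacb among the regulators, so its count gives no direction for oxidation itself.

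Other peroxisomal genes had 3 higher and 11 lower of 21. Nudt7, which breaks down peroxisomal CoA, fell by 1.31, the carnitine acyltransferase Crot by 1.04 and the membrane transporter Abcd3 by 0.64. Acox2, the oxidase for branched chains and bile acid intermediates, rose by 0.66. Abcd2 averaged 6.95 ± 0.48 on EE2 arrays and 5.31 ± 0.36 on oil arrays (SD, n = 5 each), the opposite direction to Abcd3. Other omega-oxidation genes had 1 higher, Cyp4a31, and 4 lower of 7, with Cyp4f14 at -1.98, Cyp4f15 at -1.59 and Cyp4f13 at -0.50 beside Cyp4a12a. Of 3 other ketone body genes, Oxct1, the enzyme that uses ketone bodies outside hepatocytes, rose by 1.64 and the transporter Slc16a1 by 0.50, and Acat1 fell by 0.28. Of 11 other known PPARα targets 2 were higher, Acot9 at 2.12 and Cidec at 0.58, and 3 were lower, with G0s2 at -1.10 and Retsat at -0.43.

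With CPZ, 0 of the 32 genes were called against PBS by limma, in a comparison in which 0.796% of all genes were called. At an unadjusted p under 0.05 the count was 4 of 32, or 12.5%, against 12.2% of all genes. The lowest adjusted p was that of Vnn1, at 0.0902. Arrays of the 2 groups were apart for 0 of 32, against 2.98% of all genes, and the median difference was 0.05, against 0.01 over all genes. None of the 71 other pathway genes was called.

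Vnn1 read 8.65, 8.89, 9.03, 8.16 and 8.43 on CPZ arrays 1, 3, 4, 11 and 12, and 8.15, 8.29, 8.21, 6.74 and 6.89 on PBS arrays 7, 10, 14, 19 and 20. PBS arrays 19 and 20 were far below the rest, and the difference was 0.98 with a 95% interval of 0.42 to 1.54. Cyp4a14 read 9.76, 11.01, 9.60, 9.32 and 7.66 with CPZ and 6.93, 8.12, 9.38, 8.45 and 5.61 with PBS. The groups overlapped, and the difference of 1.77 had an interval of 0.50 to 3.05 (adjusted p = 0.205).

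Cyp4a10 read 11.44, 11.75, 11.66, 11.67 and 10.56 with CPZ and 10.50, 11.19, 11.48, 10.39 and 9.67 with PBS, a difference of 0.77 (interval 0.16 to 1.37, adjusted p = 0.256). CPZ array 12 was the lowest of its group for both Cyp4a genes and PBS array 20 the lowest of its own. Ehhadh read 10.49, 10.75, 10.69, 10.42 and 10.55 with CPZ and 10.71, 10.80, 11.00, 10.83 and 10.82 with PBS, a difference of -0.25 (interval -0.42 to -0.08, adjusted p = 0.177). Those are the 4 genes with an unadjusted p under 0.05, and the Cyp4a pair and Ehhadh lay on opposite sides of 0. Under alternatives that left out no single array, the lowest values were 0.46 for Vnn1, 1.22 for Cyp4a14 and 0.45 for Cyp4a10. Ehhadh stayed between -0.27 and -0.25.

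The mitochondrial genes had narrow intervals with CPZ. In the beta-oxidation cycle the differences ran between -0.10 for Hadha and 0.10 for Acads, and for Hadha the interval was -0.24 to 0.03. Acot1 differed by 0.29 (interval -0.30 to 0.87) and Acaa1b by 0.02 (interval -0.16 to 0.20). Ppara read 9.93, 10.09, 10.11, 10.08 and 10.10 with CPZ and 10.27, 10.25, 10.30, 10.18 and 10.17 with PBS, apart but not called (adjusted p = 0.329). Over all 16464 genes, 73 were higher and 58 lower with CPZ, or 0.796% called. Against that share, macrophage markers rose at 4 of 18 genes, with mean levels of 6.98 to 7.65 on CPZ arrays and 6.50 to 6.83 on PBS arrays. Endothelial markers rose at 4 of 10, and 2 of 15 clock genes fell. Their part in these values was not tested.

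The sunflower oil vehicle differs from PBS in supplying fat, and the oil and PBS arrays were compared as well. Of the 32 genes 0 were called by limma, in a comparison in which 0.0486% of all genes were called. At an unadjusted p under 0.05 the count was 8 of 32, or 25%, against 8.59% of all genes, and the lowest adjusted p was 0.184. The median difference was 0.10, against 0 over all genes. None of the 71 other pathway genes was called, while 2 of 15 clock genes, Cry1 at 0.58 and Cry2 at 0.42, were higher with oil. Ppara averaged 10.40 with oil and 10.23 with PBS, against 10.08 with EE2. Its oil and PBS arrays were apart, but the difference of 0.17 was not called (adjusted p = 0.492).

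Pex11a was the 1 gene of the 32 with no overlap between oil and PBS, against 1.69% of all genes. It read 10.03, 10.26, 9.93, 10.01 and 9.98 with oil and 9.57, 9.87, 9.77, 9.42 and 9.37 with PBS, a difference of 0.44 (SE 0.11, 95% interval 0.21 to 0.68, adjusted p = 0.184). Its EE2 arrays, at 10.04 to 10.56, lay close to or above the oil arrays. The other genes with an unadjusted p under 0.05 were Eci2 at 0.24, Slc25a20 at 0.20, Vnn1 at 0.70, Acot1 at 0.63, Bdh1 at 0.15, Acadl at 0.11 and Ehhadh at -0.20. Acot3 had the largest difference, 1.07, with an interval of -0.01 to 2.16.

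The EE2 and CPZ responses were tested against each other as the difference between EE2 minus oil and CPZ minus PBS. Of the 32 genes 15 passed, 1 with a higher and 14 with a lower EE2 response, and the share among all genes was 31.6%, with 14.6% higher and 17% lower. Ehhadh had the higher response, by 2.11 (SE 0.12, adjusted p = 1.99e-11), being 1.86 with EE2 and -0.25 with CPZ. The lower ones began with Acot1 at -2.91 (adjusted p = 9.75e-06) and Acaa1b at -1.25 (adjusted p = 1.43e-07), whose CPZ and PBS arrays overlapped.

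The other 12 with a lower EE2 response were mitochondrial or peroxisomal enzymes with differences between -0.61 and -0.22. They were Eci1 at -0.61, Acads at -0.58, Eci2 at -0.46, Decr1 and Acaa2 each at -0.43, Decr2 and Cpt2 each at -0.41, Hadha at -0.39, Slc25a20 at -0.38, Acadl at -0.36, Etfdh at -0.34 and Hadh at -0.22. The calls of Hadh and Decr2 were the least firm, failing under 17 and 11 of 27 alternatives, most of which left out 1 array of any group. Eci1 lay between 10.77 and 11.02 on CPZ arrays and between 10.60 and 10.87 on PBS arrays, and Acads between 9.62 and 9.92 on CPZ arrays and between 9.60 and 9.67 on PBS arrays, so the CPZ side contributed small differences of the opposite sign for both.

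For Cyp4a10 and Cyp4a14 a difference between the responses was not shown. Cyp4a14 differed by 1.22 with a 95% interval of -0.59 to 3.03 (adjusted p = 0.304), and Cyp4a10 by 0.17 with an interval of -0.68 to 1.03 (adjusted p = 0.777). Those intervals leave room for responses of unequal size. Vnn1 differed by -0.32 (interval -1.12 to 0.47), Pdk4 by 0.05 (interval -0.72 to 0.83) and Angptl4 by 0.87 (interval 0.02 to 1.73, adjusted p = 0.114).

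The genes also differed in how far arrays of 1 group lay apart. The SD within groups was 1.09 for Cyp4a14, 0.92 for Acot3, 0.57 for Fgf21, 0.52 for Angptl4, 0.51 for Cyp4a10 and 0.50 for Acot1, against a median of 0.127 over all genes. At the other end, Acadvl had an SD of 0.05, Acaa2 of 0.06 and Etfa of 0.06. The median of the 32 genes was 0.131, so the set held both genes that varied widely and genes that hardly varied, the mitochondrial enzymes being among the steady ones.

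**Figure D4:**
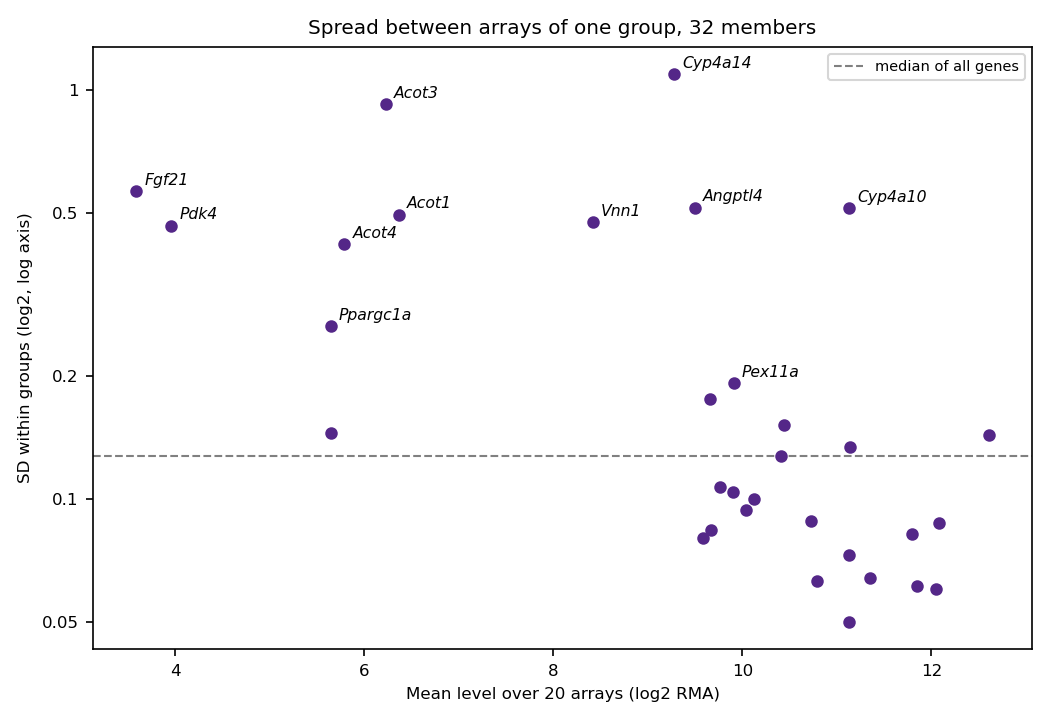
SD between arrays of 1 group (log2, on a log axis) against the mean level over 20 arrays (log2 RMA) for the 32 genes; the dashed line is the median SD of all genes, 0.127. Cyp4a14 and Acot3 lie highest, at 1.09 and 0.92, and the bright mitochondrial genes lie at the lower right.

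The arrays at the ends of each group were compared over all 9 genes whose SD within groups was above 0.4, a limit chosen after the values were seen. Within PBS, array 14 was the highest for 5 of the 9 genes (Cyp4a10, Cyp4a14, Acot1, Acot3 and Acot4), and array 19 for 3 (Fgf21, Angptl4 and Pdk4). Array 14 was also the lowest of its group for Pdk4, so the genes did not all follow 1 order of arrays. PBS array 20 was the lowest for 6 of 9, CPZ array 3 the highest for 6 of 9, and EE2 array 9 and oil array 2 the highest for 5 of 9 each. On PBS array 14 Cyp4a14 stood at 9.38, Acot1 at 7.14 and Acot3 at 6.75, and on PBS array 20 they stood at 5.61, 5.80 and 4.59. Within the PBS group Cyp4a14 thus ran between 5.61 and 9.38.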

How the data were processed

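Liver RNA was kept in RNAlater, isolated with RNeasy columns and labelled with biotin by an Affymetrix 3' IVT kit, per the labels' protocols. RMA was the authors' summary method, per the submitters' processing notes, and the deposited values are log2 levels of 17306 probe sets on 20 arrays. The sources used here do not give the probe definition, genome build or any filter. Symbols came from the platform annotation: 16464 probe sets had 1 symbol, 0 had several and 842 had none and were left out.

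The values were used without further scaling or filter. All 20 arrays entered a single limma fit with 1 mean per group (limma 3.58.1 in R 4.3.3, default eBayes, 16 residual and 4.25 prior degrees of freedom), with 4 comparisons and two-sided p-values adjusted by Benjamini-Hochberg over all genes. The test was tested on simulated data for EE2 minus oil over 16464 genes, where log2 shifts of 0.25 were recovered for 32% of 50 genes and shifts of 0.5 for 82% of 50. Only 50 genes were shifted at each of the sizes 0.25, 0.5, 1 and 2, and 163 calls resulted, against 7560 in the data. The Benjamini-Hochberg limit was therefore stricter in the simulation, and these shares do not measure recovery in the data. Precision is limited by the number of arrays.

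The genes and lists were chosen with earlier results of these data known. By rule, every measured gene of the set is named. Values per array are given for the largest called rise and fall of each role, for genes called in another comparison and for 8 genes fixed by name. Of each list of other pathway genes up to 4 with the smallest p are named, and of each marker list up to 3. Acacb and Abcd2 were named in addition, after their values were seen. Vnn1, Angptl4 and other genes given by array outside that rule were chosen after their values were seen. Promoters came from a RefSeq table (GRCm38.p6), with motifs searched and pairs aligned in Python 3.11.15 (Biopython 1.88). Alternatives were 3 other scalings, a filter on the dimmest 30% of genes, a trended robust prior, array weights, sample number as covariate, only the compared arrays, and each array left out in turn. Sample numbers were mostly higher on EE2 than on oil arrays and mostly lower on CPZ than on PBS arrays. That covariate is therefore partly tied to treatment.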

Additional observations from a re-analysis of the deposited data

Results flagged for a closer look

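Within a group of 5 arrays, 1 array stood far from the other 4 for 5 of the 128 combinations of gene and group tested with Dixon's criterion for gaps; chance alone gives about 5%, or 1 in 20, of groups such a gap. Angptl4 was lowest on EE2 array 17 at 9.28, with the nearest other EE2 array at 10.31. Cyp4a14 was lowest on EE2 array 13 at 11.02, with the next at 11.53, and still above every oil array. Acot4 was lowest on EE2 array 15 at 4.74, with the next at 5.71. Decr2 was lowest on oil array 6 at 9.28, with the next at 9.74. Cyp4a10 was lowest on CPZ array 12 at 10.56, with the next at 11.44.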

How the results depend on the processing

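Of 19 genes called with EE2, 17 passed under every alternative, the exceptions being Etfb (quantile normalization and sample number) and Slc25a20 (sample number). Of 13 not called, 9 passed under some alternative. The number called higher, 3, was 5 under quantile normalization, 5 with array weights and 6 with sample number, and 3 to 7 with 1 array left out. With arrays centred on their median, 3 were higher and 20 lower. Acadm turned to 0.07 and Bdh1 to 0.01 under quantile normalization, Bdh1 to 0.01 with sample number, and Acadvl to -0.12 and -0.04 with arrays centred on the median of all or of the brighter genes. With 1 array left out Acadm ran between -0.06 and 0.02 and Bdh1 between -0.06 and 0.03. Over all genes, 3166 were higher and 4394 lower with EE2, against 2062 and 9784 with centred arrays and 7193 lower with centring on the brighter genes. The median of all genes moved to -0.23 and -0.15 by construction.

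For CPZ, 73 genes were higher and 58 lower. The lower count was 111 with centring and 91 without dim genes. Both counts were 111 and 126 with array weights, 12 and 8 with sample number, 37 and 27 with only those arrays, and 29 to 75 and 18 to 79 with 1 array left out. Between the vehicles, 3 were higher and 5 lower. The higher count was 5 without dim genes and 6 with a trended prior. Both were 0 and 2 with sample number, 0 and 0 with only those arrays, and 0 to 10 and 2 to 9 with 1 array left out. In the difference of responses, 2404 were higher and 2805 lower, against 6530 and 4565 lower with the 2 centrings and 1537 higher and 1511 lower with sample number. Under every alternative 0 of the 32 genes were called with CPZ or between vehicles, and 11 of 15 passed in the difference, all but Hadh, Decr2, Slc25a20 and Eci2. The cause of these shifts was not tested except where construction is named. No paired analysis was possible because no sample number is shared between groups. Low signal limits Pdk4 and Fgf21.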
